A study of Mus musculus with 24 samples.

Results

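The IL-12 family of cytokines is built from 5 subunit genes, Il12a, Il12b, Il23a, Il27 and Ebi3, and all 5 were read by name from the 55291 genes counted in each library. The libraries came from pulmonary fibroblasts isolated from C57BL/6 wild type (WT) mice and from TLR4-/- mice on the same background, 4 to 8 weeks old, each preparation being a pool of 3 to 4 lungs cultured to passage 3 to 6. After a night in reduced serum medium, cells of either genotype received PBS, 1 μg/ml recombinant mouse CIRP (rmCIRP, cold-inducible RNA-binding protein, a danger signal when outside the cell), 2 ng/ml rmTGF-β1 (the growth factor that drives fibroblasts towards matrix production) or rmCIRP with rmTGF-β1 for 24 h. This gave 8 conditions of 3 libraries each, 24 in all. The sources do not say that the 3 libraries of a condition came from separate pools of lungs, so p-values measure the spread between these libraries, which may be technical. The number of pools per genotype is not given either, so genotype differences cannot be told apart from differences between cell preparations.

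Each active member of the family is a pair of different subunits. IL-12 joins p35 (Il12a) with p40 (Il12b), IL-23 joins p19 (Il23a) with the same p40, IL-27 joins p28 (Il27) with EBI3 (Ebi3), and IL-35 joins p35 with EBI3. IL-12 is best known for steering T and NK cells towards interferon-γ production, IL-23 for maintaining IL-17-producing T cells, and IL-27 and IL-35 for restraining T cell responses. Myeloid cells such as macrophages and dendritic cells are the usual sources, and p40 is usually made in excess of its partners. The comparison of treatments and genotypes asked which subunit mRNAs were present in each condition, and hence for which pairs both mRNAs were there. Counts of mRNA do not show that the protein pairs were made.

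The libraries held 29853346 to 39664606 counts each (median 33585047). The 10 fibroblast markers were above 3 counts in every condition, and their summed level lay between 681665 and 903950 normalized counts, that is counts divided by the library's size factor. The 13 macrophage markers, which include Ptprc (CD45), Adgre1 (F4/80) and Csf1r, were also above 3 counts in every condition. Their summed level was 76035 to 98520 normalized counts in the WT libraries and 329860 to 426152 in the libraries labelled TLR4-/-. Tlr4 mRNA itself was not lower in the libraries labelled TLR4-/-: its mean with PBS was 759 ± 41.9 normalized counts (SD, n = 3) in WT and 903 ± 20.2 in the other genotype, a log2 difference of 0.25 (SE 0.06, edgeR adjusted p = 0.00123). A count over the whole gene does not show which exons the reads cover, and the genotype is therefore given below as labelled. Replicate 3 of the libraries labelled TLR4-/- with rmCIRP and rmTGF-β1 stood apart in several genes. Il6 was at 23010 normalized counts against 8065 and 12233 in replicates 1 and 2, and Lif at 22072 against 6856 and 9403, and the same library was also the highest of the 3 for Il11, Clcf1, Nfkb1 and the endothelial markers Pecam1 (191 against 62.1 and 53.4) and Cdh5 (281 against 120 and 90.8). Replicate 3 of the libraries labelled TLR4-/- with rmTGF-β1 alone was also the highest of its 3 for Il11, Clcf1, Nfkb1, Pecam1 and Cdh5. Il11 was at 45813 normalized counts there against 27069 and 19038, and Clcf1 at 3468 against 2119 and 2019. Its Il6 was closer to the others, at 9578 against 9107 and 7668. Because these are bulk samples, fewer cells of a type and less RNA per cell cannot be told apart in any of the values that follow.

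Stimulation of WT cells with rmCIRP raised the mRNA of every subunit that could be tested. Of the 4 members with enough reads for the test, 4 were higher with rmCIRP than with PBS and none was lower, against 19.8% of the 16258 genes tested that were higher and 24.1% that were lower at an adjusted p below 0.1 (edgeR quasi-likelihood test, Benjamini-Hochberg adjustment over all genes). The members differed from each other by far in size, from an increase that began at no reads for Il12b to a less than 2-fold one for Ebi3. Il12b and Il23a passed the filter on low counts through the WT rmCIRP conditions where they were high, so the count of 4 carries no weight of its own.

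Il12b, which encodes the p40 chain shared by IL-12 and IL-23, had the widest change. It had no read in the 3 WT PBS libraries, and 1227, 893 and 1093 normalized counts in the 3 WT rmCIRP libraries. The groups did not overlap, and the mean of 1071 ± 168 (SD, n = 3) was at least 357-fold higher than the 3-count floor per library (edgeR adjusted p = 4.54e-14). The 250 bases of reference sequence before the annotated start of Il12b are shown because this is the gene that went from no reads to the highest level in the family. They come from the RefSeq promoter table, build GRCm38.p6, chr11:44399813-44400062, plus strand, and the capitals mark the one match to TATAA, 28 to 24 bases before the start.
Il12b: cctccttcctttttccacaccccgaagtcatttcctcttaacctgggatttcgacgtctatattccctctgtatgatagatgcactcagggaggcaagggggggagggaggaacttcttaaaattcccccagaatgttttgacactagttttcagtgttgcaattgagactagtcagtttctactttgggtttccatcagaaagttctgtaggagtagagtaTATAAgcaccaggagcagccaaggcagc

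Both p40 partners were far scarcer. Il12a (p35) had no read in WT PBS and 9, 9 and 10 raw counts with rmCIRP, or 9.55, 9.26 and 9.88 normalized counts. All 3 treated libraries lay above the 3 controls, by at least 3.19-fold against the floor of 3 counts, but Il12a had too few reads for the test across genes, and the exact permutation test of 3 libraries against 3 gave p = 0.1, the smallest it allows. Il23a (p19) had 3.85, 3.00 and 3.12 normalized counts with PBS and 30.8, 25.7 and 35.6 with rmCIRP. The groups did not overlap, and the log2 fold change was 3.15 (SE 0.43, edgeR adjusted p = 4.05e-06), with a ratio of means of 9.24 and a 95% counting interval of 4.79 to 19.9, which covers counting error only.

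Of the IL-27 pair, the p28 chain changed by far the more. Il27 had 3.85, 0.998 and 3.12 normalized counts in WT PBS and 209, 194 and 261 in WT rmCIRP, with no overlap and a difference of 6.31 on the log2 scale (SE 0.34, edgeR adjusted p = 1.20e-12). Ebi3, the partner that IL-27 and IL-35 share, was the only subunit with more than 20 reads in every library. It had 40.4, 57.9 and 27.1 normalized counts with PBS and 76.4, 80.2 and 83.0 with rmCIRP. Its groups did not overlap either, although the PBS libraries differed from each other by more than the treated ones did, and the log2 fold change was 0.92 (SE 0.19, edgeR adjusted p = 0.000441). In the GENCODE M21 annotation Il27 shares part of its locus with Apobr and Ebi3 with Gm16712, each on the opposite strand, and the strand option of the counting is not given in the sources used here. Apobr rose by a log2 fold change of 0.33 in WT rmCIRP, from 606 to 623 normalized counts with PBS to 743 to 823, and Gm16712 did not pass the threshold (0.23, adjusted p = 0.622).

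**Figure D1:**
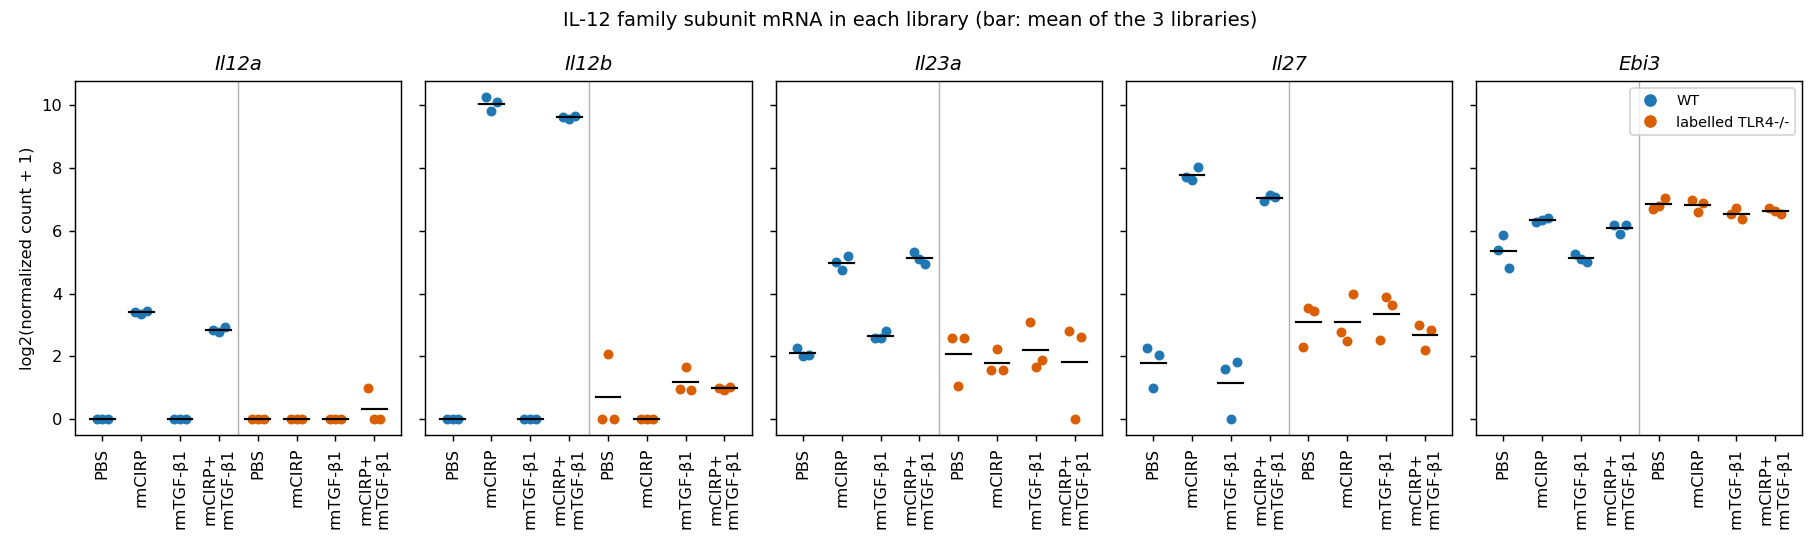
Normalized counts of the 5 subunits in each of the 24 libraries, as log2(normalized count + 1) on the vertical axis, over the 8 conditions. Points are libraries (blue WT, orange labelled TLR4-/-) and bars are means of 3. Il12a, Il12b, Il23a and Il27 are high in the 2 WT conditions that held rmCIRP, while Ebi3 has reads everywhere and is highest in the libraries labelled TLR4-/-.

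The reference sequences before the starts of Il12a and Ebi3 are set side by side because these are the scarcest subunit and the one with reads in every library. Both are from the RefSeq table, build GRCm38.p6, plus strand: chr3:68690394-68690643 for Il12a, the upstream one of its 2 annotated starts, and chr17:55952373-55952622 for Ebi3. Of the 5 members, 3 had a window in that table. Each window was searched on both strands for the NF-κB consensus, TGANTCA (AP-1), TTGCNNAA (C/EBP), GAAANNGAAA (IRF) and TATAA. The only match in these 2 windows was the NF-κB consensus in Ebi3, in capitals, 44 to 35 bases before the start and readable on either strand.
Il12a: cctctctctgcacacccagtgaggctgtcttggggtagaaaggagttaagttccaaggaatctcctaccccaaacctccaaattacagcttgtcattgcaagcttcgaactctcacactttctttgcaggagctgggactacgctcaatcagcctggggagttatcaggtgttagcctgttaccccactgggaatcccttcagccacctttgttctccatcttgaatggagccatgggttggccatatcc
Ebi3: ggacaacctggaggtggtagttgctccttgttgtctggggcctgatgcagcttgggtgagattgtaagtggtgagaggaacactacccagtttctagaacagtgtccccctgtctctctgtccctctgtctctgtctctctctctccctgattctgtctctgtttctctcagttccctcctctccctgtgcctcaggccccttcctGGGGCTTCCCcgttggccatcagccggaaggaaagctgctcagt
Over all 32851 windows of this length in the table, 7.25% held the NF-κB consensus, 6.75% TGANTCA, 9.56% TTGCNNAA, 2.98% GAAANNGAAA and 22.8% TATAA. A match is a description of the letters and not evidence of a used site.

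To examine whether rmTGF-β1 altered the subunits, it was compared with PBS in WT cells. Of the 4 members tested, none was called in either direction, where 5.77% of all genes were higher and 6.65% lower. Il12a and Il12b had no read in any of the 3 rmTGF-β1 libraries. Il23a had 5.04, 4.999 and 5.92 normalized counts, all above its 3 PBS libraries, with a log2 fold change of 0.66 with an SE of 0.60 (edgeR adjusted p = 0.582). Il27 was at 2.02, 0 and 2.54, and Ebi3 at 37.3, 32.997 and 31.3 normalized counts (log2 fold change -0.32, SE 0.21, adjusted p = 0.425). The interval of the Ebi3 difference, 2 SE to each side, ran from -0.74 to 0.11.

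With rmTGF-β1 present on both sides of the comparison, rmCIRP again raised all 4 tested members in WT cells, against a background of 20.5% of genes higher and 21.7% lower. Here too the count of 4 carries no weight of its own, because of the filter on low counts. Il12b went from no read to 786, 759 and 812 normalized counts, at least 275-fold above the floor (edgeR adjusted p = 9.75e-14). Il27 reached 122, 140 and 134 normalized counts, a log2 fold change of 6.28 with an SE of 0.39 (adjusted p = 2.02e-11). Il23a reached 38.7, 33.7 and 29.9 (log2 fold change 2.64, SE 0.38, adjusted p = 8.90e-06) and Ebi3 71.4, 58.0 and 72.0 (0.99, SE 0.20, adjusted p = 0.000477). Il12a had 6, 5 and 6 raw counts against none, at least 2.17-fold above the floor (exact permutation p = 0.1, the smallest possible).

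Adding rmTGF-β1 to rmCIRP lowered 2 of the 4 tested subunits and raised none, with 10.0% of all genes higher and 10.5% lower in the same comparison. Il12b fell from a mean of 1071 ± 168 to 786 ± 26.6 normalized counts (SD, n = 3 each), a log2 fold change of -0.45 with an SE of 0.11 (edgeR adjusted p = 0.00843), and all 3 libraries with both agents lay below the 3 with rmCIRP alone. Il27 fell from 221 ± 34.9 to 132 ± 9.17, a log2 fold change of -0.75 with an SE of 0.18 (adjusted p = 0.00498), also without overlap. Il23a was at 30.7 ± 4.92 and 34.1 ± 4.43 (log2 fold change 0.15, SE 0.27, adjusted p = 0.787), with overlapping libraries and an interval of -0.40 to 0.70. Ebi3 was at 79.9 ± 3.31 and 67.1 ± 7.90 (log2 fold change -0.25, SE 0.17, adjusted p = 0.386). Its libraries did not overlap, but the interval of -0.60 to 0.10 included 0. For Il12a the ratio of means was 0.647, with a 95% counting interval of 0.332 to 1.22 and an exact permutation p of 0.1, the smallest possible.

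The interaction, which asks whether the response to rmCIRP in WT cells depended on rmTGF-β1, called none of the 4 members. Over all genes it called 0.0369% higher and 0.0123% lower. The difference of the 2 log2 responses was -0.51 for Il23a (SE 0.66, edgeR adjusted p = 0.984) and 0.07 for Ebi3 (SE 0.27, adjusted p = 1.00), with an interval of -0.48 to 0.61 for Ebi3. For Il27 it was -0.03 (adjusted p = 1.00), resting on 8 reads in the WT PBS libraries and 5 in the WT rmTGF-β1 libraries. Il12b had no read in either control, so no size is given and the test could not decide for it.

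**Figure D2:**
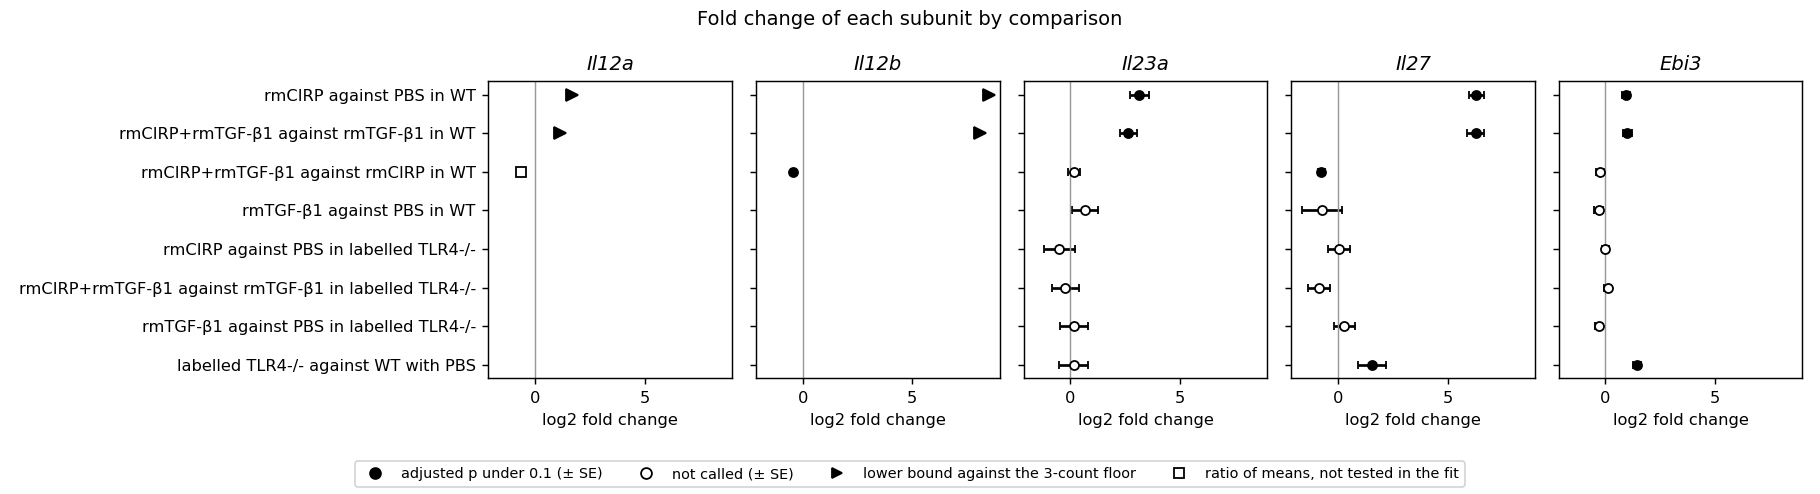
Log2 fold change of each subunit in the 8 comparisons of 2 conditions. Circles are edgeR estimates with SE, filled where the adjusted p was below 0.1, triangles are lower bounds against the 3-count floor, the square is a ratio of means, and no symbol is drawn where both conditions were at or under the floor. With rmCIRP against PBS in WT all 5 subunits lie to the right of 0, from 0.92 for Ebi3 to 6.31 for Il27 and at least 8.48 for Il12b, whereas no treatment comparison in cells labelled TLR4-/- was called.

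The order of subunit levels was read per length, as normalized counts per kilobase of exon, since only such a level can be set beside that of another gene. With rmCIRP in WT cells the order was Il12b (544 ± 85.4 per kb, SD, n = 3), Il27 (217 ± 34.1), Ebi3 (69.2 ± 2.86), Il23a (13.7 ± 2.19) and Il12a (5.62 ± 0.18), and no 2 neighbours overlapped in any library. With both agents the order was the same, at 399 ± 13.5, 130 ± 8.98, 58.2 ± 6.85, 15.2 ± 1.97 and 3.64 ± 0.25 per kb. With PBS alone it was another one, in that Ebi3 stood first at 36.2 ± 13.4 per kb and Il27 at 2.60 ± 1.45 and Il23a at 1.48 ± 0.21 were at or near the floor, with Il12a and Il12b at 0.

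For IL-12 and IL-23, both mRNAs of the pair exceeded 3 counts in 3 of 3 libraries of the 2 WT conditions that held rmCIRP, and in 0 of 3 libraries of each of the other 6 conditions. In those 2 conditions the p40 mRNA was in large excess per length. The ratio of Il12b to Il12a was 96.7 ± 13.9 with rmCIRP (83.4 to 111 over the 3 libraries) and 110 ± 3.87 with both agents (106 to 113). These ratios rest on 9 to 10 raw Il12a counts per library with rmCIRP and 5 to 6 with both agents. Their SDs may therefore understate the counting error. Il12b exceeded Il23a by 40.1 ± 5.23 with rmCIRP and by 26.7 ± 3.99 with both agents, and the 3 libraries of one condition did not overlap with those of the other (35.1 to 45.5 and 23.2 to 31.0). The scarcer mRNA in both pairs was the partner of p40, and of the 2 partners Il23a was the higher per length.

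For IL-27 the order of the pair changed with treatment. In WT PBS libraries Ebi3 was the higher mRNA and only 1 of 3 libraries had more than 3 reads of Il27. With rmCIRP, Il27 was 3.13 ± 0.41 times Ebi3 per length (2.74 to 3.55), and with both agents 2.26 ± 0.42 times (1.94 to 2.74). In the 4 conditions labelled TLR4-/- both mRNAs exceeded 3 counts in all 12 libraries, with Ebi3 14.5 ± 7.27, 14.7 ± 6.75, 10.0 ± 6.06 and 17.1 ± 6.49 times Il27 with PBS, rmCIRP, rmTGF-β1 and both agents, and IL-27 was the only one of the 4 pairs with both mRNAs over the floor outside the 2 WT conditions that held rmCIRP. Whether any of these reads came from the opposite-strand genes Apobr and Gm16712 was not tested. For IL-35 both mRNAs passed 3 counts in the 2 WT rmCIRP conditions alone, where Ebi3 was 12.3 ± 0.49 and 15.97 ± 1.23 times Il12a. The ratios to Il12a rest on the same few Il12a reads, so these SDs too may understate the counting error.

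**Figure D3:**
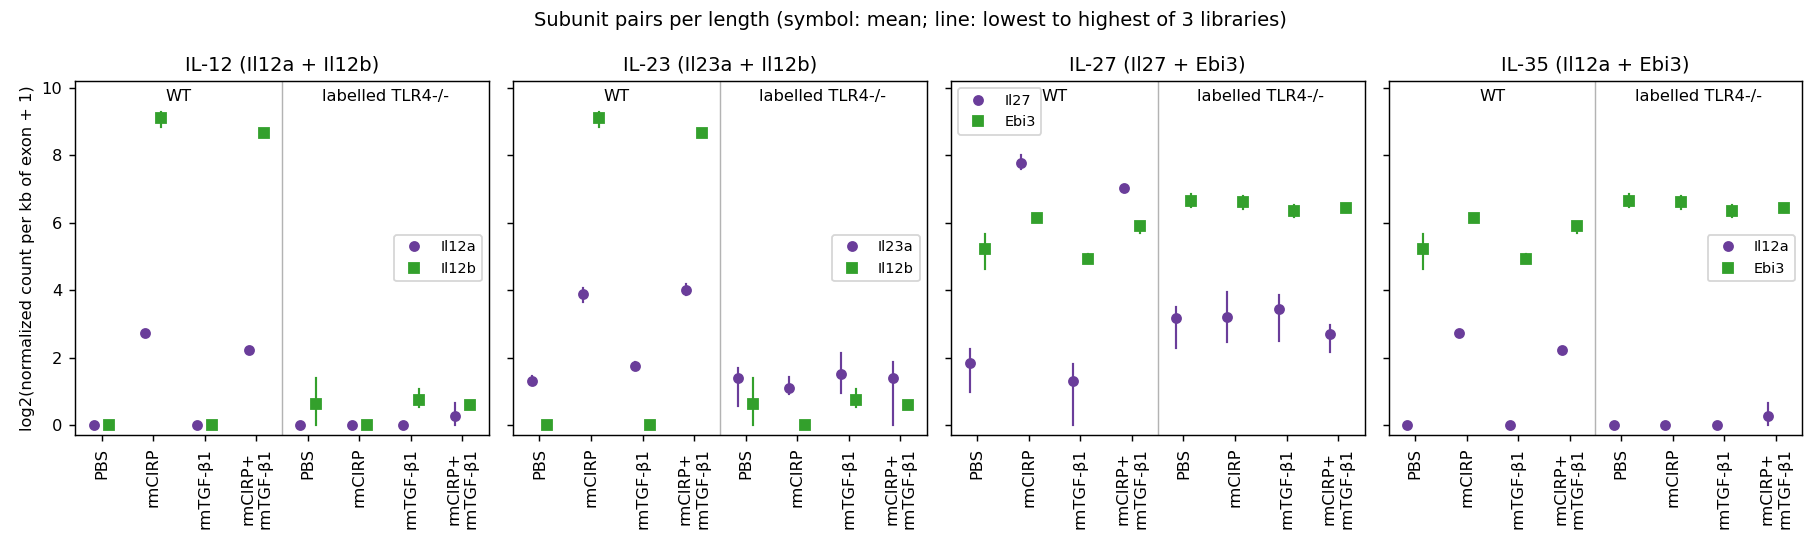
Levels per length of the 2 subunits of each heterodimer, as log2(normalized count per kb of exon + 1), over the 8 conditions. Symbols are means of 3 libraries, and lines run from the lowest to the highest library. The IL-12, IL-23 and IL-35 pairs have both symbols above 2 on this scale only in the WT conditions with rmCIRP, and the Il27 symbol crosses above Ebi3 there alone.

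To examine the dependence on genotype, the same stimuli were compared in cells labelled TLR4-/-. With rmCIRP against PBS none of the 4 tested members was called in either direction, and 0.00% of all genes were higher and 0.00% lower by edgeR at an adjusted p below 0.1, although 1136 genes had an unadjusted p below 0.05 and DESeq2 called 33. Il12a had no read in those 6 libraries. Il12b had 3 raw counts in 1 of 3 PBS libraries, none in the other two and none in the 3 rmCIRP libraries, which is at or under the floor on both sides, so no fold is given. Il27 had 3.95, 10.6 and 9.96 normalized counts with PBS and 5.90, 4.64 and 14.7 with rmCIRP (log2 fold change 0.05, SE 0.49, edgeR adjusted p = 0.994). Il23a had 4.94, 1.06 and 4.98 with PBS and 1.97, 3.71 and 1.97 with rmCIRP (-0.50, SE 0.70, adjusted p = 0.957). Ebi3 had 102, 109 and 131 with PBS and 126, 96.5 and 116 with rmCIRP (-0.01, SE 0.15, adjusted p = 0.994), with an interval of -0.32 to 0.29. All these groups overlapped.

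The other treatments of these cells gave no call among the members. With rmTGF-β1 against PBS, 12.1% of all genes were higher and 11.7% lower, and Ebi3 was at 90.9, 104 and 82.4 normalized counts (log2 fold change -0.30, SE 0.16, edgeR adjusted p = 0.198). Il27 was at 4.73, 13.8 and 11.5, Il23a at 7.57, 2.13 and 2.66, and Il12b at 1, 2 and 1 raw counts. With both agents against rmTGF-β1, 1.56% of genes were higher and 1.13% lower, Ebi3 was at 106, 98.8 and 91.7 normalized counts (0.09, SE 0.16, adjusted p = 0.799), Il27 at 6.90, 3.56 and 6.18 (-0.85, SE 0.51, adjusted p = 0.402) and Il23a at 5.92, 0 and 5.15. Il12a had a single read in 1 of these 3 libraries and Il12b had 1 in each. The library that stood apart in Il6 and Lif, replicate 3, was the lowest of the 3 for Ebi3 and lay between the other two for Il27 and Il23a.

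The response to rmCIRP differed between the genotypes for all 4 tested members. In this test of the difference itself, 17.1% of all genes had a higher and 14.3% a lower response in cells labelled TLR4-/-, and the 4 members were all lower. Il12b and Il23a passed the filter on low counts through the WT rmCIRP conditions, so this count of 4 carries no weight of its own. The difference of log2 responses was -6.26 for Il27 (SE 0.73, edgeR adjusted p = 1.07e-06), -3.66 for Il23a (SE 0.87, adjusted p = 0.00359) and -0.94 for Ebi3 (SE 0.24, adjusted p = 0.00624). For Il12b, which was at or under the floor in 3 of the 4 conditions, the adjusted p was 0.000290 and no fold is given. That p depended on 1 library: without replicate 2 of the PBS libraries labelled TLR4-/-, which held the only 3 reads, those 3 conditions were all at 0 and the adjusted p was 1.00. A contrast of log2 responses without reads in 3 of its 4 conditions cannot be estimated, so this value does not measure a smaller difference. The WT rmCIRP libraries held 868 to 1156 raw counts of Il12b. With rmTGF-β1 on both sides, 10.5% of genes had a higher and 10.4% a lower response, and the differences were -7.13 for Il27 (SE 0.74, adjusted p = 2.21e-07), -2.87 for Il23a (SE 0.77, adjusted p = 0.0123) and -0.89 for Ebi3 (SE 0.25, adjusted p = 0.0185), with an adjusted p of 0.000333 for Il12b. The Il23a value lost its call without replicate 1 of the rmTGF-β1 libraries labelled TLR4-/- (-2.12, adjusted p = 0.161).

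Before any stimulus the libraries of the genotypes already differed in the IL-27 pair, where genotype cannot be told apart from cell preparation. With PBS, 2 of the 4 tested members were higher in cells labelled TLR4-/- and none lower, against 23.2% of all genes higher and 24.0% lower. Ebi3 was at 114 ± 15.4 normalized counts there and at 41.8 ± 15.5 in WT (SD, n = 3 each), a log2 difference of 1.44 (SE 0.18, edgeR adjusted p = 6.64e-07) with no overlap. Il27 was at 8.17 ± 3.67 and 2.66 ± 1.48, a log2 difference of 1.56 (SE 0.64, adjusted p = 0.0574) that lost its call without replicate 2 of WT PBS (1.19, adjusted p = 0.192) or without replicate 2 (1.33, adjusted p = 0.169) or 3 (1.40, adjusted p = 0.157) of the other group. Il23a was at 3.66 ± 2.25 and 3.32 ± 0.46 (0.15, SE 0.66, adjusted p = 0.885). Il12b had 3 reads against none, with no fold (adjusted p = 0.168).

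Ordered over the 8 conditions, Ebi3 was highest in the 4 conditions labelled TLR4-/-, at 114 ± 15.4 with PBS, 113 ± 14.9 with rmCIRP, 98.7 ± 6.93 with both agents and 92.5 ± 10.95 with rmTGF-β1, and each overlapped with its neighbours. WT with rmCIRP followed at 79.9 ± 3.31, overlapping with the lowest of those 4, then WT with both agents at 67.1 ± 7.90, WT PBS at 41.8 ± 15.5 and WT rmTGF-β1 at 33.9 ± 3.12, where the last 2 overlapped and the others did not.

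The macrophage marker sum moved with the genotype difference in Ebi3 and Il27, and its part in that difference was not tested. With PBS it was 90310 to 98520 normalized counts in WT and 341593 to 390477 in cells labelled TLR4-/-, and 12 of its 13 genes were higher there. The remaining one, Marco, was lower there, at 405 ± 31.6 against 954 ± 113 in WT. Set against this sum, Ebi3 stood at 0.275 to 0.588 normalized counts per 1000 of macrophage markers in the WT PBS libraries and at 0.298 to 0.337 in those labelled TLR4-/-, which overlap. With rmTGF-β1 it stood at 0.334 to 0.414 in WT and, without overlap, at 0.222 to 0.291 in libraries labelled TLR4-/-. No such ratio was taken for Il27. In WT cells with rmCIRP the sum was lower, at 78307 to 83070, and Ebi3 stood at 0.930 to 1.02 per 1000, above all 3 PBS libraries. The sum is mostly Lyz2 (lysozyme), at 78175 ± 3614 normalized counts with PBS and 62462 ± 1810 with rmCIRP, and its genes did not move as one. Of the 13, 9 were lower and 4 higher with rmCIRP in WT: Marco rose from 954 ± 113 to 3289 ± 122, Fcgr1 from 60.6 ± 2.83 to 292 ± 37.8, Adgre1 from 2033 ± 171 to 4014 ± 107 and Ptprc from 652 ± 54.2 to 967 ± 90.1. These 4 moved with the subunits in this comparison, and their part in the rise was not tested.

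Markers of other cell types moved as well, and their part in the subunit differences was not tested. Il12b had 654 to 1156 raw counts in the 6 WT libraries with rmCIRP and at most 3 in any of the 12 libraries labelled TLR4-/-. All of the latter had the higher macrophage sum, so genotype and sum cannot be told apart here, and the part of either was not tested. Of the 9 dendritic cell markers, Flt3, Cd209a and Siglech were at or below 3 counts in every condition. The summed dendritic cell list was 465 to 516 normalized counts in WT PBS and 706 to 763 in WT rmCIRP, with Xcr1, H2-Ab1 and Itgax higher and Zbtb46 not called, and its part in the WT rise was not tested. The fibroblast marker sum fell in WT cells with rmCIRP, from 807075 to 866295 normalized counts with PBS to 681665 to 726165, with 6 of its 10 genes lower and 2 higher. Of the 6 T and NK cell markers, Cd3e, Cd3g, Cd8a and Ncr1 were at or below 3 counts in every condition, whereas Cd4 was at 6.02 ± 1.11 normalized counts in WT PBS and 33.2 ± 5.19 in PBS libraries labelled TLR4-/-, and Nkg7 at 8.40 ± 2.86 and 1.70 ± 0.61. The B cell marker Cd79a had 0 to 9 raw counts in all libraries. The 5 epithelial markers summed to 41.6 to 62.6 normalized counts in WT PBS and to 189 to 200 in PBS libraries labelled TLR4-/-, with both tested genes (Cdh1 and Krt8) higher. The 4 endothelial markers summed to 576 to 850 and 285 to 367, with 3 lower (Pecam1, Cdh5 and Tek).

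**Figure D4:**
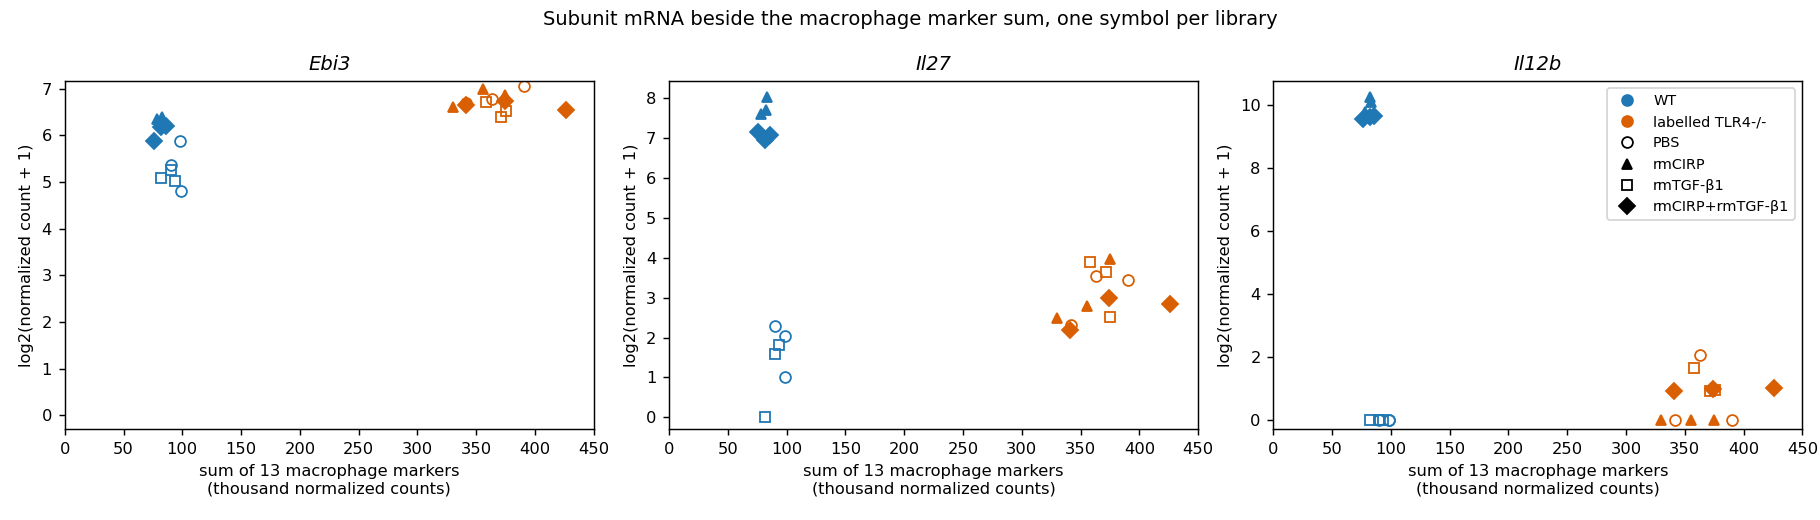
Ebi3, Il27 and Il12b in each library, as log2(normalized count + 1), against the sum of 13 macrophage markers in normalized counts, drawn in units of 1000. Blue symbols are WT and orange ones labelled TLR4-/-, with open symbols for PBS and rmTGF-β1. Every library labelled TLR4-/- lies at a higher marker sum than any WT library, and none of them holds more than 3 reads of Il12b.

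Of the 5 receptor chains of the family, 3 had enough reads to be tested, and in WT cells rmCIRP raised 1 and lowered 1. The counts in this and the next lists stand against 19.8% of all genes higher and 24.1% lower in this comparison, and 10.0% and 10.5% where rmTGF-β1 was added to rmCIRP. Il23r, the private chain of the IL-23 receptor, had 0 to 1 raw counts with PBS and 5 to 12 with rmCIRP (edgeR adjusted p = 0.00122), a change at the edge of detection. Il6st (gp130), the signalling chain that IL-27 shares with IL-6, fell slightly, from 9639 ± 751 to 8222 ± 300 normalized counts (log2 fold change -0.23, SE 0.06, adjusted p = 0.00426). Il27ra, the private chain of the IL-27 receptor, was at 69.1 ± 7.72 and 84.2 ± 12.5 (0.28, SE 0.15, adjusted p = 0.162). The IL-12 receptor chains Il12rb1 and Il12rb2 had at most 7 and 15 raw counts in any library.

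Among 6 kinases and STATs downstream of these receptors, 4 rose and 2 fell in WT cells with rmCIRP. Jak2, a kinase that the IL-12 and IL-23 receptors use, rose by 0.43 on the log2 scale (SE 0.05). Stat4, the main IL-12 signal carrier, fell from 10.6 ± 3.73 to 4.43 ± 2.08 (-1.24, SE 0.41, adjusted p = 0.0194), and Stat3 fell by 0.11 on the log2 scale. With rmTGF-β1 added to rmCIRP, 3 of the 6 were lower and none higher, Jak2 the most (-0.56, SE 0.05).

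Of 11 transcription factors known to act on the subunit genes, 9 rose and 1 fell with rmCIRP in WT cells. The rises included Batf (log2 fold change 1.84, SE 0.22), Nfkb1 (1.45, SE 0.15), Irf1 (1.16, SE 0.09) and Rel (0.73, SE 0.07), the last encoding c-Rel, an NF-κB subunit known to act on Il12b. Irf8, a myeloid factor also known to act on Il12b, fell from 280 ± 30.3 to 154 ± 20.6 normalized counts (-0.86, SE 0.095, edgeR adjusted p = 2.29e-07). When rmTGF-β1 was added to rmCIRP, 4 of the 11 were lower and none higher: Rel (-0.43, SE 0.07), Nfkbiz (-0.40, SE 0.15), Irf1 (-0.24, SE 0.08) and Rela (-0.12, SE 0.04). In cells labelled TLR4-/- with rmCIRP none of the 11 was called, while with PBS 6 of them were higher and 2 lower than in WT, against 23.2% and 24.0% of all genes. The higher ones included the myeloid factors Spi1 (2.29, SE 0.08), Irf8 (2.06, SE 0.08) and Irf5 (1.76, SE 0.09), which moved with the macrophage marker sum given above.

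Negative regulators of the family rose as well. Of 7, 6 were higher and none lower with rmCIRP in WT cells. Il10, the cytokine that holds IL-12 production down in macrophages, had at most 2 raw counts per library with PBS and 99 to 184 with rmCIRP (edgeR adjusted p = 4.68e-11). Socs1, Socs3 and Atf3 rose by 1.68 (SE 0.14), 1.57 (SE 0.12) and 1.45 (SE 0.17) on the log2 scale, and Bcl6 was not called. Of 7 relatives of the subunits, mostly helical cytokines of the IL-6 group, 6 were tested and 5 rose: Csf3 (3.78, SE 0.12), Lif (2.29, SE 0.26), Il6 (2.14, SE 0.24), Il11 (0.89, SE 0.24) and Clcf1 (0.56, SE 0.20). Csf3 fell when rmTGF-β1 was added to rmCIRP (-0.64, SE 0.09, adjusted p = 3.25e-05), while Il11 was higher (0.68, SE 0.24).

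Read against the median of all genes tested (-0.02 on the log2 scale in WT with rmCIRP), the median log2 fold change was 0.28 for the receptors, 0.15 for the kinases and STATs, 0.75 for the transcription factors, 1.45 for the negative regulators and 1.51 for the relatives. In cells labelled TLR4-/- with rmCIRP none of the 5 lists had a called gene, and their medians lay between -0.03 and 0.03 with the median of all genes at 0.00.

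**Figure D5:**
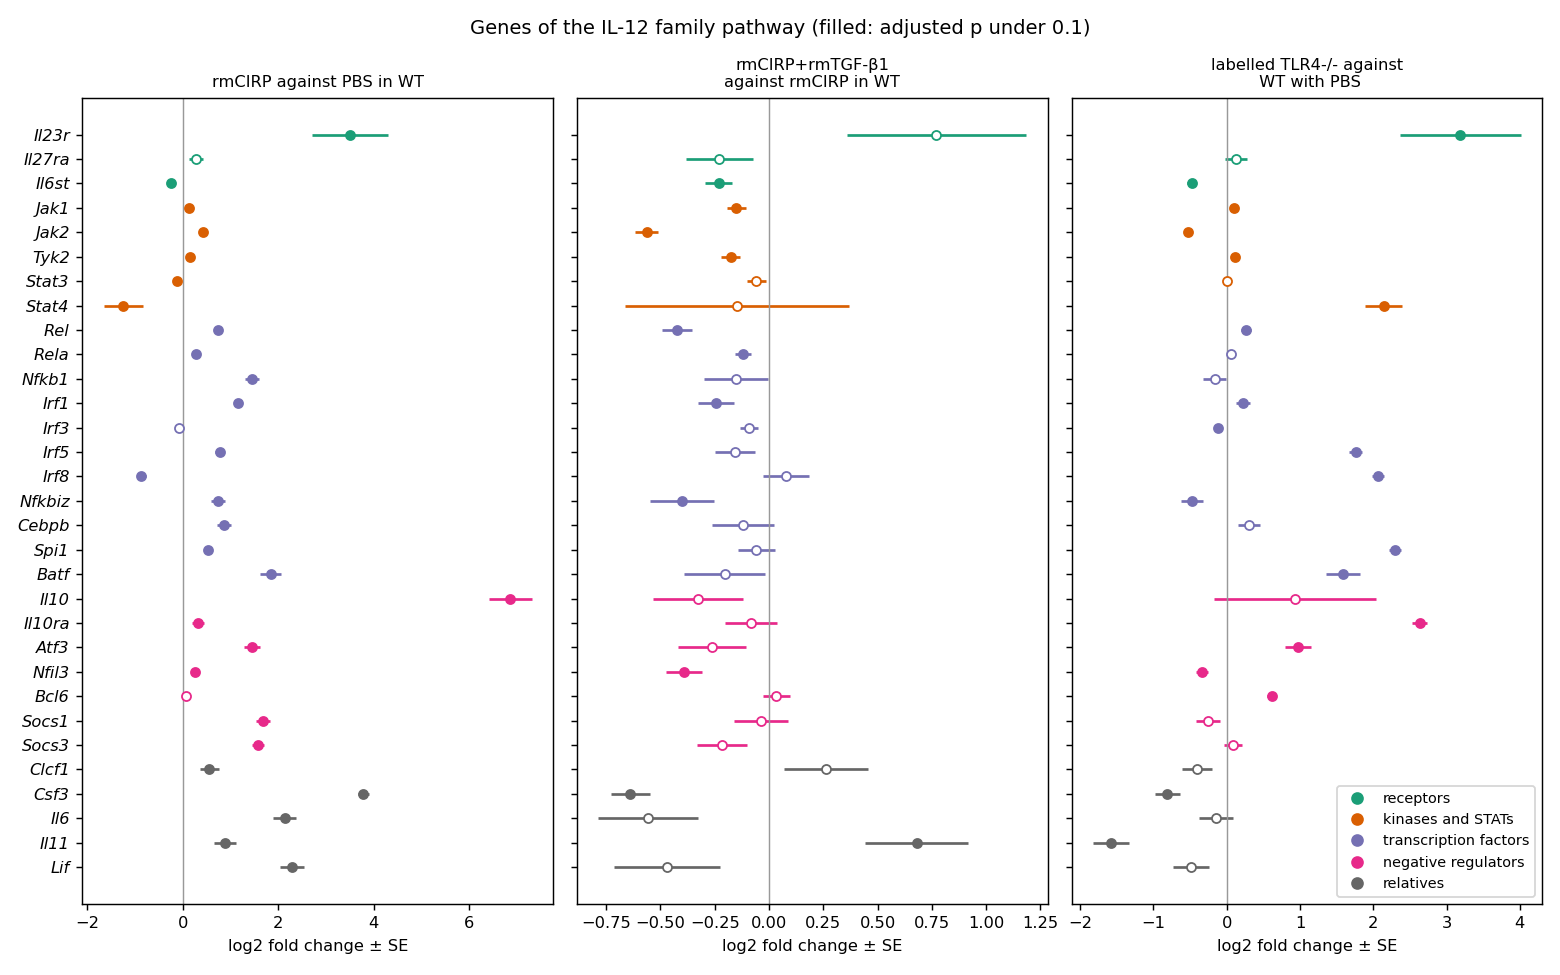
Log2 fold change with SE of tested receptors, kinases and STATs, transcription factors, negative regulators and relatives in 3 comparisons, filled where the edgeR adjusted p was below 0.1. The horizontal scales differ between panels, and Il23r and Il10 rest on at most 2 raw counts per library in WT PBS. Most filled symbols lie to the right of 0 with rmCIRP in WT, and to the left where rmTGF-β1 was added.

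The genes whose pattern over the 24 libraries was most like that of a subunit were listed by Pearson's r of log2(normalized count + 1), as a description over libraries that share genotype, treatment and depth. For Il12b these were Ogfr (r = 0.99), Tmem132e (0.99), Nos2 (0.98), Daxx (0.98) and Helz2 (0.98), and 227 of the 12310 genes averaging 50 normalized counts or more had an r above 0.9. For Il27 they were Slfn4 (0.98), Trim21 (0.97), Ccrl2 (0.97), Clec4e (0.97) and AW112010 (0.97), with 165 genes above 0.9. For Il23a, a gene of few reads, they were Ppfia3 (0.93), Bdh2 (0.91), Daxx (0.91), Ddx24 (0.91) and Csf3 (0.90), with 6 above 0.9. Ebi3 had another set, Pik3ap1 (0.96), Itga4 (0.95), Scarf1 (0.95), Ccl12 (0.95) and Casp1 (0.94), with 64 above 0.9, and none of the 5 was on the lists of the other subunits.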

How the data were processed

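RNA was extracted after 24 h and sequenced with a stranded total RNA kit. The authors aligned the reads with STAR to the mouse GENCODE reference and deposited raw counts per gene from HTSeq, without normalization. The submitters' processing notes name NCBIM37, while the annotation release and strand option are not given in the sources used here. Unassigned reads (14.5 to 16.1%) were left out.

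Counts were tested in R 4.3.3 with edgeR 4.0.16 (TMM, filterByExpr, quasi-likelihood F-test, 1 model over 8 conditions, 24 libraries), which kept 16258 genes, 4 of the 5 subunits among them. Genes with a Benjamini-Hochberg adjusted p below 0.1, the study's threshold, were called. SEs were derived from the F statistic, as |log2 fold change|/√F. Normalized counts are counts divided by DESeq2 1.42.0 size factors. A fold against a condition without reads is a lower bound against 3 counts per library. Il12a took an exact two-sided permutation test. Lengths are the union of exons in GENCODE M21 (GRCm38), which holds 53292 of the 55291 gene names. The scripts were tested on simulated data.

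The members and gene lists were chosen with earlier results of these data known. The text names the 5 subunits, 2 to 4 genes of each list with the highest level or largest called change, and some others chosen after their values were seen, and for each subunit averaging at least 10 normalized counts the 5 genes of highest r. The 2 genes that overlap Il27 and Ebi3 were added after the values were seen. Alternatives were DESeq2, RLE normalization, other filters, a replicate block, a fit of only the libraries compared, each library left out, and another gene length. Some genes of the lists are counted but not reported here by name.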

Additional observations from a re-analysis of the deposited data

Results flagged for a closer look

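The response to rmCIRP of 4 subunits differed between cells labelled TLR4-/- and WT cells in an interaction test (edgeR, adjusted over all genes). The log2 difference, labelled TLR4-/- minus WT, was -6.26 for Il27, -3.66 for Il23a and -0.94 for Ebi3, and for Il12b the adjusted p was 0.000290. With rmTGF-β1 on both sides the differences were -7.13 for Il27, -2.87 for Il23a and -0.89 for Ebi3, and the adjusted p of Il12b was 0.000333. In all 8 cases the WT libraries with and without rmCIRP did not overlap, whereas those labelled TLR4-/- did. The share of all genes without overlap was not computed, so this count carries no weight of its own. Il12b, Il23a and Il27 also had few reads in the libraries labelled TLR4-/-. As given above, Il12b and Il23a passed the low-count filter through the WT rmCIRP conditions. The Il12b value without rmTGF-β1 and the Il23a value over it each lost their call when 1 library was left out. For Il12b the contrast could then not be estimated. The macrophage marker sum differed between the genotypes as given above, and its part was not tested.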

How the results depend on the processing

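In WT cells the calls of Il12b, Il23a, Il27 and Ebi3 with rmCIRP, alone or over rmTGF-β1, and of Il12b and Il27 for rmTGF-β1 added to rmCIRP, held under every alternative run, with the same direction. Without the filter on low counts Il12a was tested and called with rmCIRP (adjusted p = 3.43e-06) and over rmTGF-β1 (0.000201). With the longest transcript as gene length the ratios moved but kept their order: Il12b to Il12a was 75.0 with rmCIRP and 85.2 with both agents, Il12b to Il23a 31.1 and 20.7, and Ebi3 to Il12a 9.43 and 12.2.

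Genes called moved by over 1.5 times in these comparisons, and the cause was not tested. For rmCIRP in cells labelled TLR4-/-, where 0 were called, there were 149 without the filter, 33 with DESeq2 and 29 with only the libraries compared. For both agents against rmTGF-β1 there (437) it was 1580, 902 and 0, and for the interaction in WT (8) it was 198, 37 and 125. The replicate block gave 1, 810 and 11 genes in these 3 comparisons, and changed no call of a subunit. Deviations of same-numbered libraries had a mean correlation of 0.01 over 84 pairs (-0.12 to 0.37), and 0.20 (0.06 to 0.37) for both agents against rmTGF-β1 in cells labelled TLR4-/-, where the block raised the count most. Not every pair passed 0.1, so the numbers were not taken to pair the libraries.

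Leaving out 1 library gave 1029 to 1690 genes for rmTGF-β1 in WT (lowest without replicate 2 of rmTGF-β1, and 1253 without replicate 3 of PBS), 0 to 9 for rmCIRP in cells labelled TLR4-/- (9 without replicate 3 of rmCIRP, 1 without replicate 1 of PBS), 2517 to 3783 for rmTGF-β1 there (lowest without replicate 3 of rmTGF-β1), 0 to 2674 for both agents against rmTGF-β1 there, and 2 to 7 for the interaction in WT. For both agents against rmTGF-β1 it was 0, 79 and 2141 without replicates 1, 2 and 3 of rmTGF-β1, and 2674, 738 and 1 without those of both agents. The adjusted p of Il12b for the genotype difference with rmCIRP ran from 7.01e-05 to 1.00, the latter where the contrast could not be estimated, as given above. The Il23a difference over rmTGF-β1 ran from -3.41 to -2.12, and the Il27 genotype difference with PBS from 1.19 to 1.94. Uncalled values changed sign, within these ranges: Il23a -0.59 to 0.44 (rmTGF-β1, labelled TLR4-/-), -0.77 to 0.53 (both agents against rmTGF-β1, labelled TLR4-/-) and -0.11 to 0.55 (genotypes with PBS), Il27 -0.60 to 0.34 (rmCIRP, labelled TLR4-/-), -0.043 to 0.63 (rmTGF-β1, labelled TLR4-/-) and -0.54 to 0.56 (interaction in WT), and Ebi3 -0.10 to 0.10 (rmCIRP, labelled TLR4-/-) and -0.24 to 0.29 (interaction in WT). Few reads limit Il12a and, outside WT rmCIRP, Il12b, Il23a and Il27.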
